A study of Mus musculus with 10 samples.

Results

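The unfolded protein and ATF4 stress genes are 35 genes, chosen by symbol, of the 25229 rows in the count table. They comprise 14 endoplasmic reticulum (ER) chaperones and folding factors, 4 genes of ER-associated degradation, 3 stress sensors with the transcription factor Xbp1, 3 transcription factors of the ATF4 arm and 10 ATF4 targets. All 35 passed the filter on low counts, as did 14251 genes in all. Adipose stem and precursor cells (ASPCs), sorted as CD45-CD31-Pdgfra+ from perigonadal white adipose tissue of WT mice, were grown to confluence without passaging. Cells then received 100 nM FICZ, a ligand of the aryl hydrocarbon receptor (AHR), or its vehicle DMSO, and were lysed after 6 hr. RNA was sequenced in 5 DMSO and 5 FICZ libraries, and the sources used here give neither the age of the mice nor whether replicates came from separate animals. P-values therefore measure the spread between these libraries, which may be technical. Library totals were 38328611, 50210111, 44787417, 42515079 and 46548029 counts in DMSO replicates 1 to 5 and 42897708, 47670865, 40272024, 43866915 and 42746246 counts in FICZ replicates 1 to 5.

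When unfolded proteins build up in the ER, the sensors Ern1 (IRE1), Atf6 and Eif2ak3 (PERK) start the unfolded protein response, which raises chaperones and degradation factors through Xbp1 and ATF6. PERK also phosphorylates eIF2, which slows translation in general while favouring that of Atf4, and ATF4 then drives genes for amino acid supply, one-carbon metabolism and the stress factor Ddit3. Stromal cells of adipose tissue secrete collagens and other matrix proteins, which are folded in the ER.

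None of the 35 stress genes differed between FICZ and DMSO at an adjusted p of 0.05 or less in edgeR's quasi-likelihood test, with Benjamini-Hochberg adjustment over the 14251 genes. The comparison called 3 genes in all, 0.0211% of those tested, and 8 genes (0.0561%) with the replicate number as a block, again with 0 members. Before adjustment, 0 members reached a p of 0.05 in either direction, where 1.33% of all genes were higher with FICZ and 3.49% were lower. With the block these shares were 2.48% and 2.17%, and again 0 members were counted. DESeq2 and limma-voom also called 0 members and counted 0 at an unadjusted p of 0.05 or less. The median log2 fold change was 0.027 over the 35 members and 0.011 over all genes tested. The member estimates ran from -0.18 for Trib3 to 0.17 for Hsp90b1, and 23 were above 0 and 12 below (21 and 14 with library size only). Without DMSO replicate 5, 10 were above 0 and 25 below, and Hsp90b1 was 0.056. Trib3 was -0.002 without DMSO replicate 3 and -0.32 without FICZ replicate 3. For 31 of the 35, the 95% interval lay within 0.5 on the log2 scale in each direction, a bound chosen after the values were seen. The 4 with wider intervals were Creld2, Trib3, Chac1 and Mthfd2. With the block 31 of 35 lay within the bound, and the 4 that did not were Hsp90b1, Dnajb11, Creld2 and Trib3. There the interval of Chac1 was -0.30 to 0.28 (SE 0.12) and that of Mthfd2 -0.049 to 0.28. Without single libraries the count within the bound ran from 26 (without DMSO replicate 1) to 33 (without DMSO replicate 5).

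**Figure D1:**
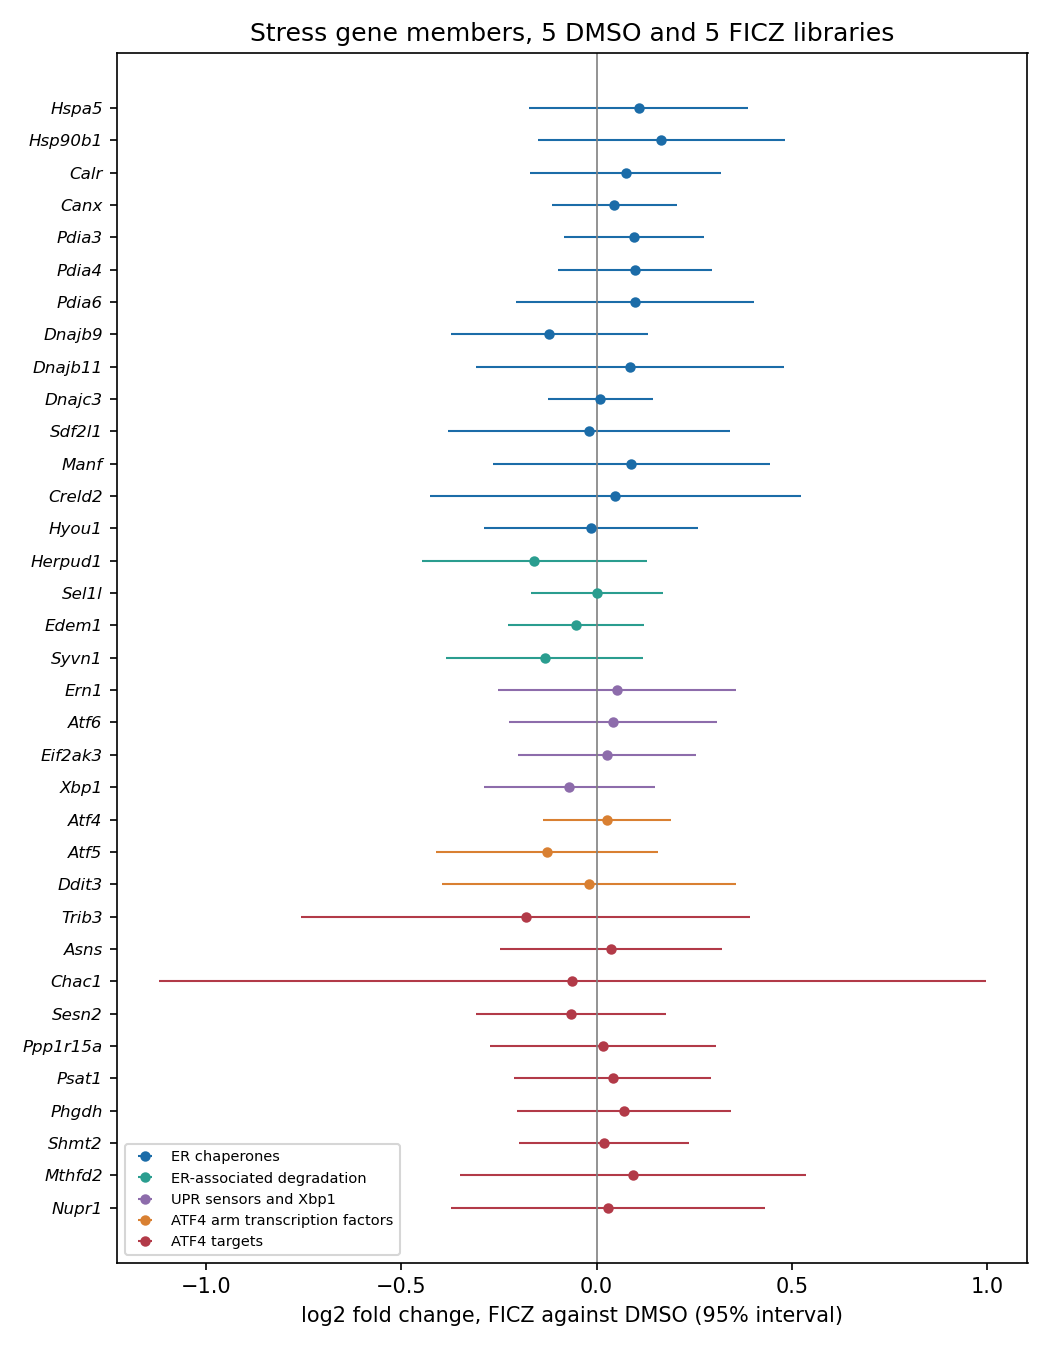
Log2 fold change of each of the 35 stress genes, FICZ against DMSO (horizontal axis), as a point with its 95% interval, coloured by role. Every interval includes 0, and that of Chac1 is the widest, from -1.12 to 1.00.

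The treatment itself was seen in AHR target genes. Levels are counts scaled to a common library size (CPM), and libraries with the same replicate number are called a pair. Cyp1a1, a monooxygenase that metabolises AHR ligands, measured 35.2, 26.9, 42.9, 11.6 and 17.2 CPM in DMSO replicates 1 to 5 and 317, 287, 355, 144 and 172 CPM in FICZ replicates 1 to 5. The groups did not overlap, and Cyp1a1 had a log2 fold change of 3.25 (SE 0.38, 95% interval 2.42 to 4.09) at an adjusted p = 0.0189 in edgeR. Ahrr, the repressor of AHR, had a log2 fold change of 1.66 (SE 0.16, 95% interval 1.32 to 2.00) with an adjusted p = 0.00324 in edgeR, higher in 5 of 5 pairs. Tiparp, an ADP-ribosyltransferase that limits AHR signalling, had a log2 fold change of 0.91 (SE 0.12, 95% interval 0.65 to 1.17) with an adjusted p = 0.0335 in edgeR, and 0.0509 with the block. Cyp1b1 had a log2 fold change of 0.62 (SE 0.10, 95% interval 0.40 to 0.84), not past 0.05 in edgeR (adjusted p = 0.147, and 0.0757 with the block). DESeq2 called it, with an adjusted p = 0.0000333, and 0.0000000736 with the block, as did edgeR without DMSO replicate 5 (adjusted p = 0.0220). Leaving out 1 library took the adjusted p of Cyp1a1 to at most 0.0924 (past 0.05 without DMSO replicate 1 or 2 or FICZ replicate 1, 2 or 3) and that of Tiparp to at most 0.190 (past 0.05 without any of DMSO replicates 1 to 4 or FICZ replicates 1 to 3). Ahrr kept an adjusted p of 0.0309 or less. Without both libraries of pair 5, 0 genes were called, and Cyp1a1, Ahrr and Tiparp were each at an adjusted p = 0.0615 in edgeR. The call of Cyp1a1 was lost also without a filter on low counts (adjusted p = 0.0726) and with Alb, a hepatocyte gene, as a covariate (adjusted p = 0.0656). That of Tiparp was lost with Alb (adjusted p = 0.0537) and with a filter of at least 1 CPM in 5 libraries (adjusted p = 0.0506). All 4 AHR targets were separated between groups, as were 0.47% of all genes tested, and 0 of the 35 stress genes were.

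The labelled cell type was checked against its markers. Pdgfra, used in the sort, measured 1181 to 1472 CPM, Ptprc (CD45) 0.141 to 1.70 CPM and Pecam1 (CD31) 0.507 to 1.62 CPM. The 8 precursor cell markers summed to 10130.3 to 15116 CPM per library, led by Col3a1. The sums were 64.7 to 87.1 CPM for 6 endothelial markers, 20.9 to 42.3 CPM for 8 immune markers and 52.7 to 102 CPM for 6 adipocyte markers, of which Lep had no count. For 5 mesothelial markers the sum was 63.7 to 84.9 CPM, for 3 plasma cell markers 157 to 205 CPM, led by the widely expressed Sdc1, and for 5 pancreatic acinar markers 1.46 to 3.65 CPM. Hepatocyte markers were abundant although the sort was for Pdgfra: 13 of them, all with counts, summed to 3722, 1359, 1461, 3369 and 9096 CPM in DMSO replicates 1 to 5 and 2029, 1749, 1939.6, 1329.5 and 1789 CPM in FICZ replicates 1 to 5. Alb, the most abundant, was 4782 CPM in DMSO replicate 5 and 682 to 1921 CPM in the other 9 libraries. All 13 were lower with FICZ at an unadjusted p of 0.05 or less, with a median log2 fold change of -1.12, and 0 passed the adjusted threshold in edgeR. With the block 0 of 13 were at 0.05 or less before adjustment, and the smallest unadjusted p was 0.0663 in edgeR and the median -0.77. The count was 0 of 13 also without DMSO replicate 5, where the smallest unadjusted p was 0.0532 in edgeR and the median -0.50. It was 2 without FICZ replicate 4, 7 without FICZ replicate 2 and 8 without FICZ replicate 5. Of the 6 immune markers tested, 5 were lower with FICZ and 1 higher, with a median of -0.78 (-0.32 without DMSO replicate 5). Of the 5 endothelial markers tested, 4 were lower and 1 higher, with a median of -0.37 (-0.30 without DMSO replicate 5). At an unadjusted p of 0.05 or less, 1 immune and 0 endothelial markers were lower in edgeR, and 0 and 2 with the block. None passed the adjusted threshold.

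DMSO replicate 5 stood apart from the other 9 libraries across the table. It lay at least 0.5 log2 units below the median of the other 9 in 18.6% of the genes tested and above it by as much in 17.6%, a bound chosen after the values were seen. Of the 35 stress genes, 15 were that far below and 1 above. It was the lowest of the 10 libraries for 21 members and the highest for 5, against 29.4% and 28.3% of all genes tested. The 15 comprised 8 chaperones, 6 ATF4 targets and Ddit3, and the member above was Herpud1. Besides the hepatocyte markers, it had the highest sums of immune (42.3 CPM against 20.9 to 33.7) and mesothelial markers (84.9 CPM against 63.7 to 82.4). Its sum of pancreatic acinar markers was also the highest (3.65 CPM against 1.46 to 3.49). Of these 5 markers, 4 had 3 counts or fewer in every library, so the sum was mostly Cela1. The sum of adipocyte markers was the lowest (52.7 CPM against 61.5 to 102). The sums of precursor, endothelial (83.3 CPM) and plasma cell markers (175 CPM) were neither highest nor lowest in this library. In bulk RNA, fewer cells of a type and less RNA per cell cannot be told apart. Without this library the log2 fold change of 15 of the 35 members changed sign, and the part of the transcripts of these other cell types in the levels was not tested.

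**Figure D2:**
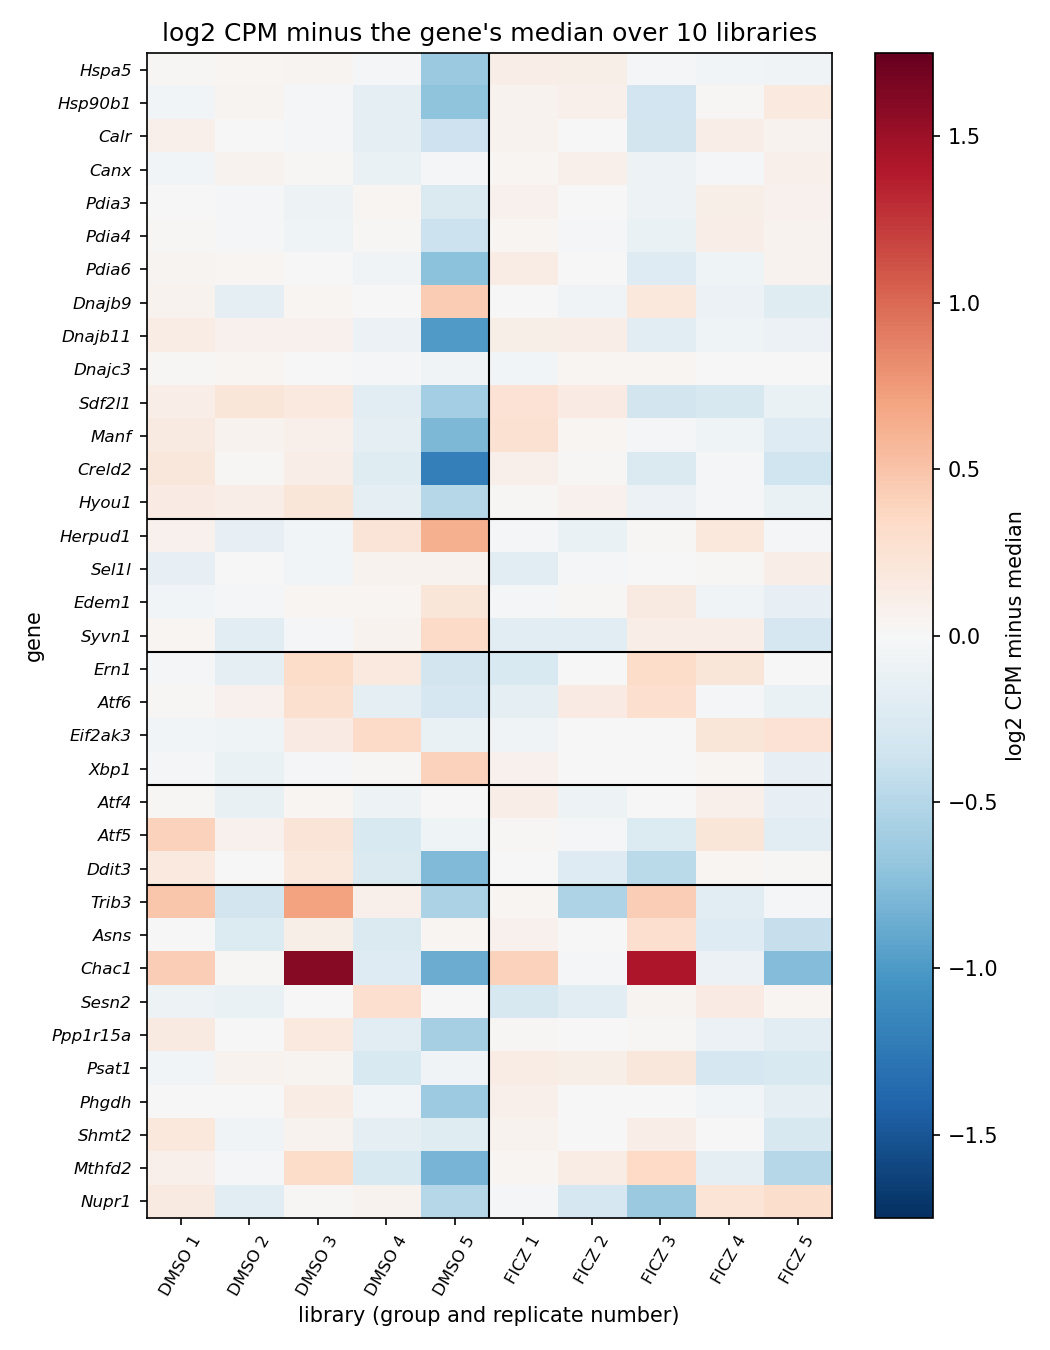
Log2 CPM of the 35 stress genes (vertical axis) in each library (horizontal axis) minus the gene's median over the 10 libraries, with red above and blue below. DMSO replicate 5 is the lowest library for 12 of the 14 chaperones, and Chac1 is high in replicate 3 of both groups.

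The most abundant members were chaperones. Per kilobase of exon, Calr, a lectin chaperone that binds calcium, had 678 ± 76.0 CPM per kb (SD, n = 10 libraries), Hsp90b1 (GRP94) 517 ± 81.9 and Hspa5 (BiP) 413 ± 53.2. Hspa5 (chr2:34771970-34777547, plus strand), the ER member of the HSP70 family that holds the sensors inactive, measured 1822, 1838, 1853, 1754 and 1147 CPM in DMSO replicates 1 to 5 and 1949.9, 1914, 1761, 1726 and 1719 CPM in FICZ replicates 1 to 5. DMSO replicate 5 was the lowest library and the other 9 lay together, so the groups overlapped. Hspa5 averaged 1683 ± 302 CPM with DMSO and 1814 ± 109.7 CPM with FICZ (SD, n = 5), with a log2 fold change of 0.11 (SE 0.13, 95% interval -0.17 to 0.39) and an adjusted p = 0.999 in edgeR. Without DMSO replicate 5 its log2 fold change was -0.0022.

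Calr measured 2142, 2006, 1994, 1799 and 1567 CPM in DMSO replicates 1 to 5 and 2098, 2026, 1608, 2176 and 2104 CPM in FICZ replicates 1 to 5. Its lowest values were those of DMSO replicate 5 and FICZ replicate 3. It had a log2 fold change of 0.075 (SE 0.11, 95% interval -0.17 to 0.32), with an adjusted p = 0.999 in edgeR. The log2 fold change of Calr was 0.013 without DMSO replicate 5, and without FICZ replicate 3 it was 0.14. Pdia3, a disulfide isomerase that works with the lectin chaperones, had the smallest unadjusted p among the chaperones, 0.261 in edgeR. It measured 1281, 1242, 1192, 1305 and 1068 CPM in DMSO replicates 1 to 5 and 1335, 1264, 1201, 1369 and 1342 CPM in FICZ replicates 1 to 5. Pdia3 was higher with FICZ in 5 of 5 pairs, the only member with 1 direction in every pair, and 4.32% of all genes were higher and 2.81% lower in all 5 pairs. The groups overlapped, with a log2 fold change of 0.10 (SE 0.082, 95% interval -0.082 to 0.28) and an adjusted p = 0.999 in edgeR. The value for Pdia3 was 0.053 without DMSO replicate 5.

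Creld2, a secreted ER stress factor, was singled out after its values were seen, as the member lowest in DMSO replicate 5 relative to the other libraries. It measured 106, 93.0, 100.2, 79.2 and 40.0 CPM in DMSO replicates 1 to 5 and 98.1, 93.5, 77.4, 91.2 and 72.2 CPM in FICZ replicates 1 to 5. The groups overlapped, with a log2 fold change of 0.048 (SE 0.22, 95% interval -0.43 to 0.52) and an adjusted p = 0.999 in edgeR. The log2 fold change was -0.13 without DMSO replicate 5 and -0.0013 without FICZ replicate 1. The DMSO replicate 5 value was 43.1% of the median of the other 9 libraries. The same share was 47.7% for the cochaperone Dnajb11, 56.8% for the secreted factor Manf, 60.7% for the disulfide isomerase Pdia6 and 60.8% for Hsp90b1. Sdf2l1, a partner of Dnajb11, was at 61.2%, and Hyou1, an exchange factor of Hspa5, at 70.1%. Canx and the cochaperone Dnajc3 were closer to the other libraries, at 96.6% and 95.7%. Dnajb9, a cochaperone of Hspa5, went the other way, at 136%. Pdia4, a further disulfide isomerase, was at 76.3%. In all, 12 of the 14 chaperones, Dnajc3 included, were lowest and 1 was highest in this library, and 8 were at least 0.5 log2 units below the median of the others.

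Over the 10 libraries the remaining chaperones ranged from 30.7 to 55.4 CPM for Sdf2l1 and 45.5 to 71.6 CPM for Dnajb9 up to 932 to 1076 CPM for Canx and 1346 to 2467 CPM for Hsp90b1. Dnajc3 varied least, from 267 to 287 CPM. Of the 14 chaperones, 11 had a log2 fold change above 0 and 3 below it (10 and 4 with library size only, 5 and 9 without DMSO replicate 5), and their median was 0.08. Their mean log2 CPM was 8.74, 8.71, 8.71, 8.58 and 8.19 in DMSO replicates 1 to 5 and 8.76, 8.72, 8.54, 8.65 and 8.63 in FICZ replicates 1 to 5. The FICZ mean minus the DMSO mean was 0.072. The SD was 0.23 among DMSO libraries, 0.072 among DMSO replicates 1 to 4 and 0.085 among FICZ libraries. The same-numbered differences were 0.018, 0.012, -0.17, 0.069 and 0.44, so that pair 5 held the largest. Without DMSO replicate 5 the difference was -0.026, below 0.

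**Figure D3:**
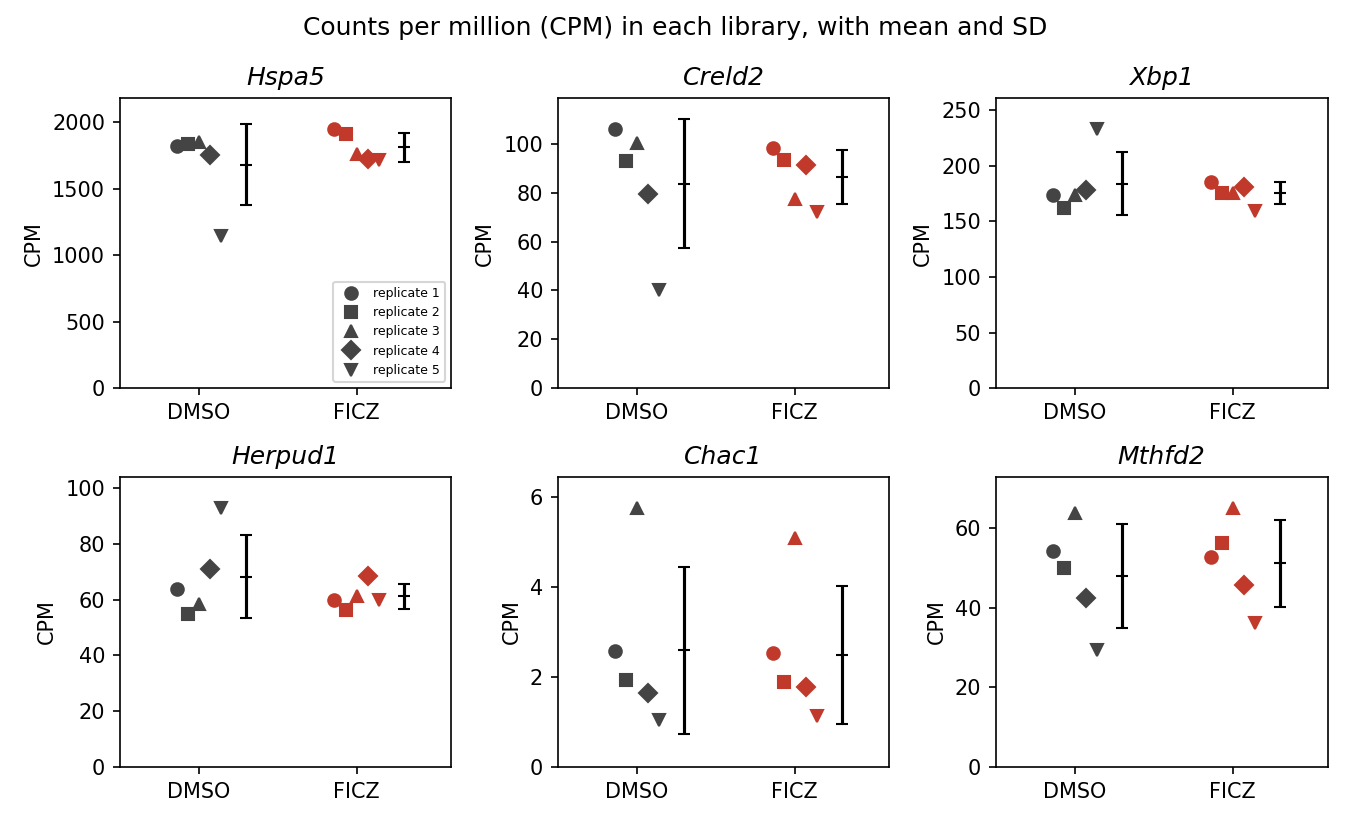
CPM (vertical axes, from 0) of 6 stress genes in each DMSO and FICZ library, with a marker shape for each replicate number and bars for the mean ± SD of 5 libraries. DMSO replicate 5 is the lowest library for Hspa5, Creld2, Chac1 and Mthfd2 and the highest for Xbp1 and Herpud1, and replicate 3 is the highest in both groups for Chac1 and Mthfd2.

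In ER-associated degradation, misfolded proteins are carried out of the ER and ubiquitinated. Herpud1, a membrane protein of this machinery, had the smallest unadjusted p of all members, 0.251 in edgeR. It measured 63.9, 54.9, 58.5, 71.0 and 92.9 CPM in DMSO replicates 1 to 5 and 59.8, 56.1, 61.4, 68.6 and 59.7 CPM in FICZ replicates 1 to 5. DMSO replicate 5 was the highest library, and without it the log2 fold change of Herpud1 was -0.023 in place of -0.16 (SE 0.13, adjusted p = 0.999 in edgeR). Sel1l, the adaptor of the ubiquitin ligase Syvn1, was the most abundant of the 4 per kilobase, at 27.9 ± 1.77 CPM per kb (SD, n = 10 libraries), within the spread of Herpud1 at 27.7 ± 4.77. It measured 217, 240.4, 233, 251 and 251 CPM in DMSO replicates 1 to 5 and 211, 238, 241, 245 and 259.9 CPM in FICZ replicates 1 to 5. The groups overlapped throughout, with a log2 fold change of 0.0023 (SE 0.077, 95% interval -0.17 to 0.17). Edem1, a lectin that delivers glycoproteins for degradation, ranged from 107 to 138 CPM, and Syvn1 from 42.0 to 65.2 CPM. Herpud1, Edem1 and Syvn1 were each highest in DMSO replicate 5, and the median log2 fold change of the 4 was -0.093, or -0.015 without that library. The sign for Sel1l turned below 0 with DESeq2's size factors or library size only, and without DMSO replicate 1 (-0.045) or 3 (-0.0052) or FICZ replicate 4 (-0.0064) or 5 (-0.041).

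Xbp1 (chr11:5520659-5525893, plus strand), whose transcript is spliced by IRE1, was the most abundant of its group per kilobase and the one with the smallest unadjusted p, 0.502 in edgeR. It measured 173, 162, 174, 178 and 233 CPM in DMSO replicates 1 to 5 and 185, 176, 176, 181 and 159 CPM in FICZ replicates 1 to 5. DMSO replicate 5 was the highest and the other libraries overlapped. Gene-level counts do not separate spliced from unspliced Xbp1. Xbp1 averaged 184 ± 28.0 CPM with DMSO and 175 ± 9.74 CPM with FICZ (SD, n = 5), with a log2 fold change of -0.07 (SE 0.10, 95% interval -0.29 to 0.15) and an adjusted p = 0.999 in edgeR. It was higher with FICZ in 4 of 5 pairs, those numbered 1 to 4, and its log2 fold change was 0.03 without DMSO replicate 5. The sensors ranged from 25.0 to 39.3 CPM for Ern1, 81.6 to 122 CPM for Atf6 and 43.4 to 59.5 CPM for Eif2ak3, with log2 fold changes of 0.052, 0.042 and 0.027. DMSO replicate 5 was the lowest library for each of them, and without it these values were -0.023, -0.022 and -0.015. Of the exon bases of Eif2ak3, 485 lie opposite an antisense gene, whose reads cannot be told apart without strand. For the chaperone Hsp90b1, 415 exon bases lie opposite other genes and 217 overlap others on the same strand. For Manf, 312 lie opposite and 14 overlap on the same strand. Of the 50-base words of these 2 genes, 9.75% and 6.17% also occur in other genes.

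Atf4 (chr15:80255184-80257541, plus strand), which is controlled largely through its translation, measured 178, 160.2, 179.5, 164 and 176 CPM in DMSO replicates 1 to 5 and 189, 165, 175, 186 and 159 CPM in FICZ replicates 1 to 5. No library stood apart, DMSO replicate 5 included. It averaged 172 ± 8.79 CPM with DMSO and 175 ± 13.3 CPM with FICZ (SD, n = 5), with a log2 fold change of 0.027 (SE 0.075, 95% interval -0.14 to 0.19) and an adjusted p = 0.999 in edgeR, or -0.0033 on the log2 scale without FICZ replicate 1. Ddit3 (chr10:127290774-127296288, plus strand), the stress factor CHOP, measured 29.1, 25.9, 29.3, 21.8 and 15.2 CPM in DMSO replicates 1 to 5 and 25.9, 22.2, 18.7, 26.6 and 26.2 CPM in FICZ replicates 1 to 5. Its lowest library was DMSO replicate 5, at 58.7% of the median of the other 9. Ddit3 had a log2 fold change of -0.019 (SE 0.17, 95% interval -0.40 to 0.36), with an adjusted p = 0.999 in edgeR, and a value of -0.15 without that library. It was -0.20 with Alb as a covariate and -0.19 without pair 5. It lay above 0 without DMSO replicate 1 (0.039), 2 (0.0071) or 3 (0.06) or FICZ replicate 2 (0.0073) or 3 (0.058). Of the 1713 exon bases of Ddit3, 81 lie opposite other annotated genes and 105 overlap others on the same strand. Of its 50-base words, 1.11% also occur in another gene. Atf5, an ATF4-related factor, had the most counts per kilobase of the 3 and the smallest unadjusted p, 0.348 in edgeR. It measured 228, 181, 201, 143 and 163 CPM in DMSO replicates 1 to 5 and 174, 169.6, 145, 198 and 152 CPM in FICZ replicates 1 to 5. It was lower with FICZ in 4 of 5 pairs, but the groups overlapped, with a log2 fold change of -0.13 (SE 0.13, 95% interval -0.41 to 0.16). Without DMSO replicate 1 the log2 fold change of Atf5 was -0.051, and without DMSO replicate 4 it was -0.20.

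Of the 10 ATF4 targets, 4 were highest in replicate 3 of both groups, Trib3, Asns, Chac1 and Mthfd2. Chac1, which degrades glutathione, measured 2.57, 1.93, 5.75, 1.64 and 1.05 CPM in DMSO replicates 1 to 5 and 2.53, 1.89, 5.07, 1.77 and 1.13 CPM in FICZ replicates 1 to 5. Replicate 3 was the highest and replicate 5 the lowest in each group, and the log2 fold change was -0.062 (SE 0.48, adjusted p = 0.999 in edgeR). It was 0.47 without DMSO replicate 3 and -0.50 without FICZ replicate 3, and lay above 0 also without FICZ replicate 2 (0.022), 4 (0.037) or 5 (0.11). With the block it was -0.0079 (SE 0.12). Chac1 rested on 49 to 251 counts per library. Mthfd2, a mitochondrial enzyme of one-carbon metabolism, measured 54.4, 49.9, 64.0, 42.5 and 29.3 CPM in DMSO replicates 1 to 5 and 52.8, 56.2, 65.2, 45.9 and 36.2 CPM in FICZ replicates 1 to 5. The same 2 numbers were the extremes in each group, and the log2 fold change was 0.094 (SE 0.20, adjusted p = 0.999 in edgeR). It was -0.041 without DMSO replicate 5 and -0.0072 without FICZ replicate 3. With the block it was 0.11 (SE 0.069). Chac1 and Mthfd2 were named after their values were seen.

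Differences between replicate numbers were then tested with edgeR's quasi-likelihood test, in the fit with treatment, after the data had been seen. This called 257 genes, 1.8% of those tested, and 2 of the 35 members, Chac1 (adjusted p = 0.0183) and Mthfd2 (adjusted p = 0.0406). The mean over the pair of libraries was 5.41 CPM for number 3 and 1.09 CPM for number 5 in Chac1. In Mthfd2 these means were 64.6 and 32.7 CPM. Number 3 was the highest in each group for 6 members, Ern1, Atf6, Trib3, Asns, Chac1 and Mthfd2, and for 8.67% of all genes tested. What the numbers mark is not given in the sources used here.

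Trib3, a pseudokinase that restrains ATF4 signalling, had the smallest unadjusted p of the targets, 0.504 in edgeR. It measured 3.67, 2.11, 4.28, 2.79 and 1.79 CPM in DMSO replicates 1 to 5 and 2.69, 1.80, 3.53, 2.30 and 2.56 CPM in FICZ replicates 1 to 5. Its groups overlapped, with a log2 fold change of -0.18 (SE 0.26, 95% interval -0.76 to 0.39) and an adjusted p = 0.999 in edgeR. The log2 fold change of Trib3 was -0.002 without DMSO replicate 3, -0.32 without DMSO replicate 5 and -0.32 without FICZ replicate 3. Psat1, an enzyme of serine synthesis, was the target with the most counts per kilobase, at 87.8 CPM per kb. It measured 369.9, 397, 393, 316 and 364 CPM in DMSO replicates 1 to 5 and 415, 410.3, 439, 311 and 318 CPM in FICZ replicates 1 to 5. Number 4 was low in both groups, and Psat1 had a log2 fold change of 0.041 (SE 0.12, 95% interval -0.21 to 0.29) with an adjusted p = 0.999 in edgeR. Its log2 fold change was -0.0087 without DMSO replicate 4 and -0.017 without FICZ replicate 3. Trib3 and Chac1 were the least abundant members, at 1.30 and 1.55 CPM per kb.

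The other targets ranged from 53.6 to 87.4 CPM for Asns, which makes asparagine, 96.5 to 133 CPM for the mitochondrial serine enzyme Shmt2 and 61.4 to 104 CPM for Phgdh, which starts serine synthesis. Of the 50-base words of Phgdh transcripts, 47.8% also occur in other genes, so its counts are uncertain. Sesn2, a leucine sensor, ranged from 14.8 to 22.0 CPM, Ppp1r15a (GADD34), which reverses eIF2 phosphorylation, from 14.2 to 23.9 CPM, and the chromatin-associated stress protein Nupr1 from 13.8 to 27.0 CPM. Their log2 fold changes lay between -0.065 for Sesn2 and 0.071 for Phgdh. They were below 0 without DMSO replicate 5 for Shmt2 (-0.022), Phgdh (-0.039), Ppp1r15a (-0.089) and Nupr1 (-0.06), which had been above it. The mean log2 CPM of the 10 targets was 5.06, 4.84, 5.24, 4.83 and 4.51 in DMSO replicates 1 to 5 and 4.98, 4.85, 5.15, 4.85 and 4.70 in FICZ replicates 1 to 5. The FICZ mean minus the DMSO mean was 0.012, beside an SD of 0.27 among DMSO libraries, 0.20 among DMSO replicates 1 to 4 and 0.17 among FICZ libraries. The same-numbered differences were -0.08, 0.012, -0.09, 0.025 and 0.19. Without DMSO replicate 5 the difference was -0.084, and without DMSO replicate 3 it was 0.10. It was below 0 also without DMSO replicate 2 (-0.0031) or 4 (-0.005) or FICZ replicate 1 (-0.007) or 3 (-0.048), and with library size only (-0.0048). With the median over the 10 genes in place of the mean it was 0.10.

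Promoters were searched on both strands in RefSeq windows of 300 bases (GRCm38.p6), which held 32 of the 35 members and 27025 genes in all. Manf, Hyou1 and Atf6 were not among them. The ER stress element (CCAAT and CCACG with 9 bases between them) was found in 7 of 12 chaperone promoters and in 0.137% of all genes in the table. The chaperones were Calr, Canx, Creld2, Dnajc3, Hsp90b1, Hspa5 and Pdia6, and Syvn1 held it too. These include Creld2, Pdia6, Hspa5 and Hsp90b1, at least 0.5 log2 units below the median in DMSO replicate 5. They also include Dnajc3, the lowest there too but at 95.7% of the median, and Calr and Canx, less than 0.5 below. Syvn1, outside the chaperones, was the highest there, at 129% of the median. Dnajb11 and Sdf2l1 were searched, lay at least 0.5 log2 units below the median there and held no element. Pdia3 (83.4% of the median there), Pdia4 (76.3%) and Dnajb9 (136%) held none either. Whether the element goes with the level in that library was not tested. The elements of Hspa5, Creld2, Pdia6 and Dnajc3 are shown with 15 bases on each side, 5′ to 3′ on the gene's strand. The element, or in Creld2 its reverse complement, is in capitals.
Hspa5, chr2:34772010-34772058, plus strand: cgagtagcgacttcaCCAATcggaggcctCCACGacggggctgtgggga
Creld2, chr15:88819505-88819553, plus strand: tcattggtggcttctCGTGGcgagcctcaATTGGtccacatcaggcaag
Pdia6, chr12:17266476-17266524, plus strand: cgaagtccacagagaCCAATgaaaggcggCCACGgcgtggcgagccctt
Dnajc3, chr14:118937812-118937860, plus strand: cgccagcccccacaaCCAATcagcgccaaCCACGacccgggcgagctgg

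The ATF4 element searched (TGATG, any base, AA) was found in 4 of 10 target promoters, those of Asns, Chac1, Nupr1 and Trib3, in that of Herpud1, and in 4.51% of all genes. These elements are shown in the same way for the 3 that were highest in replicate 3 of both groups (Chac1, Trib3, Asns). That of Nupr1, which was lowest in FICZ replicate 3, is shown too. Mthfd2, also highest in replicate 3 of both groups, held no such element. Where the element lies on the opposite strand, its reverse complement is in capitals.
Chac1, chr2:119351034-119351071, plus strand: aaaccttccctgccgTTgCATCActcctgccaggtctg
Trib3, chr2:152344024-152344061, minus strand: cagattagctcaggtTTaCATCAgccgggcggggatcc
Asns, chr6:7693210-7693247, minus strand: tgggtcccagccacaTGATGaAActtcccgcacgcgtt
Nupr1, chr7:126625558-126625595, minus strand: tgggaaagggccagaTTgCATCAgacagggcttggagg
The AHR core GCGTG was found in 22 of the 32 member promoters (68.8%) and in 35.2% of all genes, the longer form TNGCGTG, which contains the core, in 3 (9.38%) against 5.84%. A match of these letters is a description of the window and not a binding site. In Hsp90b1, Calr and Canx, every match of the AHR core shared bases with an ER stress element. The counts of these motifs are therefore not independent.

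Of 85 further genes of these pathways, 84 were tested (Fgf21 had too few counts) and 0 passed the adjusted threshold in edgeR. At an unadjusted p of 0.05 or less, 4 were higher and 1 was lower with FICZ, and with the block 8 were higher and 1 was lower. Of all genes tested, 1.33% were higher and 3.49% lower at that p, and with the block 2.48% and 2.17%. The median log2 fold change of the 84 was 0.064. Among ER folding genes, Fkbp14, a prolyl isomerase of collagen folding, measured 83.7, 101, 96.5, 97.2 and 127 CPM in DMSO replicates 1 to 5 and 126, 129, 134, 114 and 129 CPM in FICZ replicates 1 to 5. The highest DMSO library, replicate 5, lay within the FICZ range, with a log2 fold change of 0.32 (SE 0.10, 95% interval 0.091 to 0.55) and an adjusted p = 0.999 in edgeR. Creb3l1, an ER-bound factor of collagen secretion, led the other regulators and was 80.7 ± 13.1 CPM with DMSO and 106 ± 20.2 CPM with FICZ (SD, n = 5), with a log2 fold change of 0.39 (adjusted p = 0.999 in edgeR), higher in 5 of 5 pairs. Eif2ak2 (PKR), an eIF2 kinase activated by double-stranded RNA, was 56.9 ± 9.42 CPM with DMSO and 75.5 ± 7.62 CPM with FICZ (SD, n = 5), with a log2 fold change of 0.41 (adjusted p = 0.999 in edgeR), higher in 4 of 5 pairs.

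Ddit4 (REDD1), an inhibitor of mTORC1, measured 14.1, 17.7, 15.6, 21.8 and 8.62 CPM in DMSO replicates 1 to 5 and 25.4, 23.4, 11.8, 26.3 and 36.1 CPM in FICZ replicates 1 to 5. FICZ replicate 3 lay among the DMSO libraries, and the log2 fold change was 0.66 (SE 0.28, adjusted p = 0.999 in edgeR). Cbs, an enzyme of cysteine synthesis that is abundant in liver, measured 15.1, 6.13, 6.39, 15.2 and 39.0 CPM in DMSO replicates 1 to 5 and 7.78, 8.80, 8.53, 6.40 and 7.23 CPM in FICZ replicates 1 to 5. It was high in DMSO replicates 1, 4 and 5, which also had the highest sums of hepatocyte markers. Its log2 fold change was -1.08 (adjusted p = 0.999 in edgeR), -0.46 without DMSO replicate 5 and -0.026 with Alb as a covariate. Alb was itself lower with FICZ, so that fit does not cleanly separate Alb from treatment. The source of the Cbs transcripts was not tested. In the other lists the smallest unadjusted p belonged to Slc6a9, a glycine transporter (0.26 on the log2 scale), Iars, the isoleucyl-tRNA synthetase (0.17), and Selenos, a selenoprotein of ER-associated degradation (0.13). Iars was 0.10 and Selenos 0.052 without DMSO replicate 5, and without FICZ replicate 3, Slc6a9 was 0.17. All 12 aminoacyl-tRNA synthetases had log2 fold changes above 0 in each scaling, as did 53.8% of all genes tested in edgeR. This was 9 of 12 without DMSO replicate 5 and 5 of 12 with Alb as a covariate. Their median was 0.11, or 0.024 without DMSO replicate 5 and -0.0021 with Alb. In edgeR, 0 of 12 reached an unadjusted p of 0.05, and with the block 1 of 12 did, at 0.0362. None of the 12 passed the adjusted threshold in either.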

How the data were processed

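Per the methods, the authors aligned reads with STAR 2.7.7 to mm10, and the deposited values are raw counts per gene symbol, checked to be whole numbers. The counting program, its annotation and its use of strand are not given in the sources used here. Counts were tested with edgeR 4.0.16 (R 4.3.3): TMM normalization, filterByExpr and the robust quasi-likelihood test, with a threshold of 0.05 on the adjusted p. CPM are counts scaled by library size and TMM factor. Mean log2 CPM used a prior count of 2. Intervals come from the SE implied by the F statistic. Of the table's rows, 6 repeat a symbol, none of them a member. Library pairs within a group differed by more than sampling noise (chi-square per degree of freedom 16.6 to 288 over 20 pairs). The labels number both groups 1 to 5, and deviations of same-numbered libraries from their group means correlated across genes at 0.15 to 0.32, so the replicate block was fitted as an alternative. Others were DESeq2 1.42.0, limma-voom (limma 3.58.1), other scalings, filters and prior counts, Alb as a covariate, and leaving out libraries. A count of 0 allows up to 3 counts, or 0.0603 to 0.0787 CPM per library, for counting error only.

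Coordinates and exon lengths are from GENCODE mouse release 21 (GRCm38). Full values are given for Hspa5, Xbp1, Atf4 and Ddit3, for the member of each role with the smallest unadjusted p or the most counts per kilobase, and, from each pathway list, the gene with the smallest unadjusted p is named. Members and lists were chosen with earlier results of these data known.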

Additional observations from a re-analysis of the deposited data

Results flagged for a closer look

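In 7 of 74 groups of 5 libraries (35 members and 2 mean levels in each treatment), a single library was set apart at the top or bottom, with a gap above 0.71. Over all genes tested this was so in 8.59% of such groups. This gap, the distance from the next library in log2 CPM divided by the span of the group, was 0.886 for Hspa5, 0.766 for Pdia4, 0.865 for Pdia6, 0.788 for Dnajb11 and 0.775 for Phgdh, all with DMSO replicate 5 the lowest. It was 0.744 for Xbp1, with DMSO replicate 5 the highest. Thus 6 of the 7 came from that library, as did 52.1% of the groups so set apart over all genes tested. DMSO replicate 5 also had the highest sum of hepatocyte markers, 9096 CPM. The part of these transcripts was not tested. The other was Calr at 0.764, with FICZ replicate 3 the lowest. Just under 0.71, all with DMSO replicate 5 the lowest, were the mean level of the chaperones (0.708), Hsp90b1 (0.705) and Creld2 (0.701).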

How the results depend on the processing

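The count of members past the threshold was 0 in every one of the 22 other settings run, and at an unadjusted p of 0.05 or less it was 0 except in 2 settings added after the data were seen. There were 3 (Ddit3 -0.32, Asns 0.18, Nupr1 -0.30 on the log2 scale) with the replicate block and Alb as a covariate and 2 (Trib3 -0.32, Asns 0.13) with the block and without pair 5, none past the adjusted threshold. The replicate block leaves the score differences at 0.072 and 0.012 by arithmetic, since each group holds every replicate number. Besides Tiparp, the block changed no call among the genes named. The chaperone score difference ranged from -0.026 to 0.11 without single libraries, and was -0.019 without pair 5 and -0.046 with Alb as a covariate. The ATF4 target score difference ranged from -0.084 to 0.10, and was -0.033 without pair 5, -0.10 with Alb and -0.0048 with library size only. With the median over the genes the score differences were 0.049 and 0.10. Over all genes the calls numbered 3 in edgeR, 8 with the block, 16 in DESeq2, 26 in DESeq2 with the block, 2 without a filter, 0 without pair 5 (8 with the block), 16 with the block and Alb, and 1 to 4 without single libraries.

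The cause of the following changes of sign, all in genes past no threshold, was not tested. With Alb as a covariate, the log2 fold change was Hspa5 -0.0227, Xbp1 0.0525, Herpud1 0.0339, Calr -0.0107, Creld2 -0.1827 and Mthfd2 -0.0764. Without pair 5, the log2 fold change was Xbp1 0.0551, Calr -0.0138, Sel1l -0.0175 and Creld2 -0.0794. With the block and Alb, the log2 fold change was Xbp1 0.0749, Herpud1 0.0208, Calr -0.0845, Sel1l -0.0016, Creld2 -0.1385 and Cbs 0.0367. With the block and without pair 5, the log2 fold change was Xbp1 0.0555, Calr -0.0197, Sel1l -0.0186 and Creld2 -0.075. With the block, the log2 fold change was Ddit3 0.006. In DESeq2 with the block, the log2 fold change was Ddit3 0.002 and Sel1l -0.0032. In limma-voom, the log2 fold change was Ddit3 0.0157 and Chac1 0.0046. With DESeq2's size factors, the log2 fold change was Sel1l -0.0045. With library size only, the log2 fold change was Sel1l -0.0154. Without a filter, the log2 fold change was Sel1l -0.0057. With at least 1 CPM in 5 libraries, the log2 fold change was Sel1l -0.02. In DESeq2, the log2 fold change was Sel1l -0.0021. Other values moved by over 1.5 times and kept their sign, and not all of them are listed here. With at least 1 CPM in 5 libraries they were Atf4 0.0046, Psat1 0.0199 and Ddit3 -0.0374, among others. With the block and Alb they included Hspa5 0.0019 and Pdia3 0.0275, and with library size only Atf4 0.0095. With Alb as a covariate they were Ddit3 -0.20, Pdia3 0.056, Atf5 -0.19, Trib3 -0.31, Sel1l 0.012, Psat1 0.027, Chac1 -0.32, Selenos 0.053, Iars 0.071 and Cbs -0.026. Without pair 5 they were Hspa5 0.0088, Atf4 0.06, Ddit3 -0.19, Pdia3 0.035, Herpud1 -0.02, Trib3 -0.32, Psat1 0.085, Chac1 -0.10, Mthfd2 0.052, Selenos 0.064, Cbs -0.44 and Ddit4 0.32. Without single libraries (the one left out in brackets) the ranges were -0.0022 (DMSO 5) to 0.1461 (DMSO 3) for Hspa5, -0.1106 (DMSO 2) to 0.0296 (DMSO 5) for Xbp1, -0.0033 (FICZ 1) to 0.0478 (FICZ 2) for Atf4, -0.1475 (DMSO 5) to 0.0599 (DMSO 3) for Ddit3, -0.0449 (DMSO 1) to 0.0449 (FICZ 1) for Sel1l, -0.0165 (FICZ 3) to 0.1051 (FICZ 4) for Psat1, -0.1293 (DMSO 5) to 0.1326 (DMSO 1) for Creld2, -0.4953 (FICZ 3) to 0.4667 (DMSO 3) for Chac1 and -0.0406 (DMSO 5) to 0.2198 (DMSO 3) for Mthfd2. Depth limits Trib3 and Chac1 most, at 85 and 49 counts in their lowest libraries.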
